A study of Mus musculus with 5 samples.

Results

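The expression of 38 genes of the cell cycle was described in circulating mononuclear cells of the mouse, a tissue in which most cells do not divide. The members were fixed by gene symbol, and all 38 of them were found among the 33,696 genes of the count tables. The rule uses symbols and no measured value, though the list was drawn up with earlier results of these data known. The cells came from C57BL/6N mice, whose age and sex are not given in the sources used here, modelling HFpEF, the form of heart failure in which the ejection fraction is preserved. Chow-fed controls gave 2 libraries. Another 2 libraries, called HFD + L-NAME, came from mice kept for 15 weeks on a high-fat diet together with L-NAME, which blocks the synthesis of nitric oxide. The same regimen with nitro-oleic acid (NO2-OA, an electrophilic nitrated fatty acid) over its last 4 weeks gave 1 library, called NO2-OA. All 5 libraries were made from blood cells taken over a Ficoll gradient, cleared of red cells by lysis, frozen and thawed. The labels do not say whether a library holds 1 animal or several, so the spread between libraries may be technical.

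A dividing cell first copies its DNA in S phase and then parts the copies in mitosis. S-phase members supply nucleotides (Tyms, Rrm1, Rrm2, Tk1), unwind DNA (the Mcm2 to Mcm7 helicase) or hold and service the replication fork (Pcna, Pclaf, Uhrf1). The mitotic members include cyclins and the kinase they activate (Ccna2, Ccnb1, Ccnb2, Cdk1), parts of the anaphase-promoting machinery (Cdc20, Ube2c), kinases and checkpoint proteins (Aurka, Aurkb, Plk1, Bub1, Bub1b), chromosomal passenger proteins (Birc5, Cdca8), centromere proteins (Cenpa, Cenpe, Cenpf) and spindle proteins (Tpx2, Kif11, Kif20a, Nusap1). Mki67 is the proliferation antigen, and Top2a untangles DNA. Hmgb2, H2az1 and Stmn1 are chromatin and microtubule proteins that resting blood cells also use. In blood, most lymphocytes rest, monocytes and neutrophils rarely divide, and platelets and mature red cells have no nucleus.

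The promoters of 6 members are shown because the results below turn on these genes. Promoters of cell-cycle genes are known for 3 kinds of element: the CCAAT box, bound by NF-Y, the cell cycle genes homology region (CHR), bound by the MuvB complex, and E2F sites. The motifs searched were CCAAT itself, for the CHR the letters TTTGAA, and for E2F the letters TTTGGCGC or TTTCCCGC, each on both strands, in the 250 bases before the start site. No motif lies wholly within another, though neighbouring matches can share an end base. Capitals mark a match. ATTGG is the CCAAT box, and TTCAAA the CHR, read on the other strand. The 120 bases before each start are printed 5′ to 3′ on the gene's strand, from RefSeq on GRCm38.p6. The windows lie at chr2:164769809-164769928 on the plus strand (Ube2c), chr11:99024190-99024309 on the minus strand (Top2a), chr7:135716380-135716499 on the minus strand (Mki67), chr10:69352913-69353032 on the minus strand (Cdk1), chr1:128359706-128359825 on the minus strand (Mcm6) and chr11:117849117-117849236 on the plus strand (Birc5).
Ube2c: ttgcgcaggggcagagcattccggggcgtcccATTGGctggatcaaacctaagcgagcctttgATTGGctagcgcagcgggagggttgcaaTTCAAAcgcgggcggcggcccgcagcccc
Top2a: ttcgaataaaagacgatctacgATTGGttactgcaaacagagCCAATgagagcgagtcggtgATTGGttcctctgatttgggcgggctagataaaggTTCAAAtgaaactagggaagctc
Mki67: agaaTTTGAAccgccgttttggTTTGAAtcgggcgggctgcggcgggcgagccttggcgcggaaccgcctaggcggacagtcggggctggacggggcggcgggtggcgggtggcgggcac
Cdk1: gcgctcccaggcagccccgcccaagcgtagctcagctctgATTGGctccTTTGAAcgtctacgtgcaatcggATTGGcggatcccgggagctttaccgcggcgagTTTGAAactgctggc
Mcm6: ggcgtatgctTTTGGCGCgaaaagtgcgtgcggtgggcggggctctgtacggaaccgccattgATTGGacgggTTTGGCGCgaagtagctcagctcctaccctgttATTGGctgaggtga
Birc5: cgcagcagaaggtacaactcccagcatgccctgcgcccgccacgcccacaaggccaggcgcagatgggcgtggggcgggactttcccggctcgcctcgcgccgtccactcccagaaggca

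Of the 38 members, 32 had an entry among the 32,851 promoters of the RefSeq table. A member counted once if any of its entries matched, while all promoters were counted by entry. Mcm7 and Uhrf1 had 2 entries each. A CCAAT box stood in 28 of the 32 (87.5%), against 33.8% of all promoters of the same length. TTTGAA stood in 9 of 32 (28.1%), against 16% of all promoters. Those 9 were Mcm2, Ccnb2, Cdk1, Cdc20, Ube2c, Kif11, Mki67, Top2a and Hmgb2. All 9 of them also held a CCAAT box, a pair found in 5.55% of all promoters. TTTGGCGC was found in Mcm5 and Mcm6 (0.417% of all promoters) and TTTCCCGC in 1 of the 2 entries of Mcm7 (0.895%). The Birc5 window held no match. A match describes the sequence only.

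The 5 libraries held 8488 to 17,997 barcodes, of which 54,971 of 66,693 were kept. Kept barcodes had a median of 5641 to 7151 unique molecular identifiers (UMIs, each a counted transcript), and any pair of libraries shared 18 to 53 barcode sequences. Clusters were formed without the members and without other cell-cycle genes, and 14 classes were named from marker genes. The 2 clusters that stayed without a class name, but held enough cells to test, are called by their genes (cluster 5, Ccl5 and Klrk1; cluster 10, Tex14). Libraries differed in makeup before any member was read. Cavity-type macrophage-like cells, named from genes of the macrophages of body cavities, were found in 2 of the 5 libraries: 99 in chow 2 and 316 in HFD + L-NAME 2. Erythroid-like cells made up 1.19% and 0.247% of kept cells in chow, 2.52% and 5.16% under HFD + L-NAME and 2.09% under NO2-OA. Neutrophil-like cells numbered 309 and 9 in chow, 293 and 533 under HFD + L-NAME and 489 under NO2-OA. Their part in values summed over all kept cells was tested only where stated below, by leaving a class out.

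Most members were rare, with Hmgb2, H2az1 and Pcna as the exceptions. Summed over all cells, Hmgb2 had 275 and 331 CPM (UMIs of the gene per 1000000 UMIs) in the chow libraries, 339 and 281 under HFD + L-NAME and 390 under NO2-OA. H2az1 had 227, 324, 281, 288 and 305 CPM in the same order, and Pcna, the clamp that holds DNA polymerase on DNA, had 183, 138, 140, 111 and 134. Cenpa, the histone variant of centromeres, and Mcm6, a helicase subunit, followed with 37.9 to 53.1 CPM and 24.3 to 36.2 CPM. The leading members of the other roles were lower: the cyclin Ccnb2 had 2.85 to 7.25 CPM, the kinase Aurka 6.70 to 8.14, the checkpoint kinase Bub1b 2.42 to 4.05, the kinetochore motor Cenpe 2.61 to 3.11 and the spindle motor Kif11 3.88 to 7.45. At the other end, Cdk1 had 0.385 to 2.27 CPM, Ccna2 0.407 to 1.71, Ccnb1 0.448 to 1.09 and Plk1 0.475 to 0.675. Levels of different genes come from 3′ counts, which carry no correction for how well each gene is captured, and are given to show how few counts stand behind a member.

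The members did not share one order of classes (heat map of members by class). Pcna was similar in lymphocytes and myeloid cells, at 161 CPM in B-like, 158 in T-like and 117 in classical monocyte-like cells with the libraries summed. Mcm6 was found at 145 CPM in NK-like cells, which are circulating killer lymphocytes, against 7.1 in classical monocyte-like and 25.1 in B-like cells. Each NK-like library lay above 100 for this gene, with the lowest at 108 CPM in HFD + L-NAME 1. Hmgb2 was found at 950 CPM in neutrophil-like cells and H2az1 at 1016 CPM in classical monocyte-like cells, while B-like cells had 316 and 142 CPM of these genes. Kif11 had 34.1 CPM in the class of CD4 and regulatory T-like cells, 18.6 in NK-like and 2.20 in B-like cells. Tk1, the thymidine kinase, had 9.84 CPM in B-like and 0.769 in T-like cells.

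**Figure D1:**
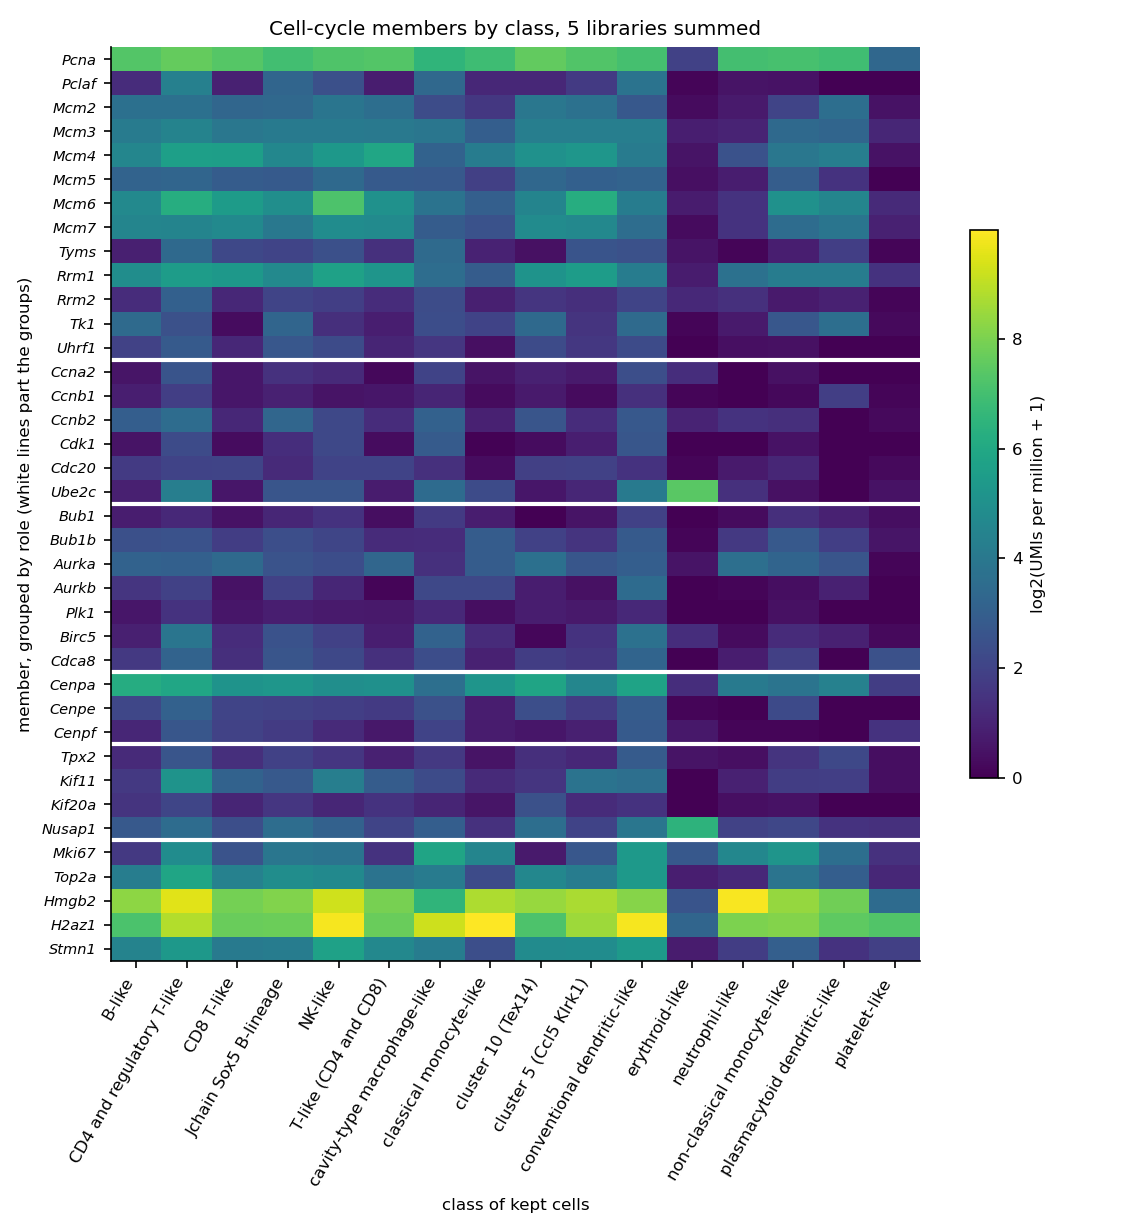
Members (rows, grouped by role) by class of kept cells (columns), coloured by log2(CPM + 1) with the 5 libraries summed. Hmgb2, H2az1 and Pcna are bright in nearly all classes, most cyclins and kinases are dark, and Ube2c and Nusap1 stand out in erythroid-like cells.

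Erythroid-like cells held 2 members and almost nothing else of the list. Ube2c, the ubiquitin-conjugating enzyme of the anaphase-promoting complex, and Nusap1, a spindle protein, made up 87.8% of the 2624 member UMIs in this class. The other 36 members had at most 75 UMIs each, and 30 of 38 had any. Ube2c was found in 50% and 54.2% of erythroid-like cells in chow, 64.4% and 68.6% under HFD + L-NAME and 53.4% under NO2-OA, at medians of 5972.5 to 10,113.5 UMIs. B-like cells held little of it, at 0.162, 0.175, 0.257, 4.74 and 0.329 CPM in the same order of libraries. Its level over all cells outside the erythroid-like class is given below. Summed over all kept cells, erythroid markers had 11,479 and 2910 CPM in chow, 27,305 and 60,955 under HFD + L-NAME and 30,180 under NO2-OA. NO2-OA thus lay above HFD + L-NAME 1 with fewer erythroid-like cells (264 against 270). Clusters 22 and 23 are also led by haemoglobin genes and Alas2, an enzyme of haem synthesis, but stayed unnamed because markers of another lineage scored too high in them. They held 24 and 6 cells in chow, 13 and 21 under HFD + L-NAME and 233 under NO2-OA.

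Mki67 and Top2a marked different classes. Of 54,971 kept cells, 5190 (9.44%) had a UMI of either gene: 1681 of Mki67 alone, 3261 of Top2a alone and 248 of both. Mki67 alone was the rule in neutrophil-like cells (165 Mki67 alone, 7 Top2a alone, 3 both), classical monocyte-like cells (311, 50 and 21) and non-classical monocyte-like cells (426, 124 and 61). Top2a alone was the rule in B-like cells (126, 1460 and 22) and in T-like cells (107, 687 and 10). CD4 and regulatory T-like cells lay between, with 98, 222 and 40. In CPM, Mki67 was higher than the level in B-like cells (2.14 with libraries summed) in non-classical monocyte-like cells (35.6), neutrophil-like cells (23.5) and cavity-type macrophage-like cells (56.5).

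The share of barcodes with either gene followed both class and depth. It was 51.3% in cavity-type macrophage-like cells, whose median depth was 26,863 UMIs, 27.1% in non-classical monocyte-like, 22% in classical monocyte-like and 20.1% in CD4 and regulatory T-like cells. Neutrophil-like cells had 10.7%, B-like 7.21%, T-like 6.65%, erythroid-like 4.53% and platelet-like 0.866%. Platelet-like barcodes were set beside the other classes because platelets have no nucleus. Their median was 859 to 5241 UMIs per library, against 5282.5 to 7361 for B-like cells. Whether their share gives the background of other classes was not tested. Barcodes were then thinned to 2000 UMIs, which left out 3129 shallower ones, 365 and 396 in chow, 210 and 1631 under HFD + L-NAME and 527 under NO2-OA. Of the platelet-like barcodes 1889 of 3235 were lost in this way, and of the cavity-type macrophage-like ones 47 of 415, so the thinned shares describe a deeper subset. They were 11.1%, 8.68%, 4.53% and 8.68% in the first 4 classes, and 5.30%, 3.08%, 2.70%, 1.20% and 0.520% in the others. At that equal depth non-classical monocyte-like cells had 8.14% and 9.01% in chow, 6.65% and 9.55% under HFD + L-NAME and 11% under NO2-OA, each above the B-like value of the same library (2.88%, 3.15%, 2.99%, 3.56% and 3.08%). Classical monocyte-like cells were below the B-like value in HFD + L-NAME 1 and above it in the other 4 libraries. Of 33 further members, thinned classical monocyte-like barcodes with Mki67 alone held 0.559 on average and those with neither gene 0.453. The same values were 0.468 and 0.517 in non-classical monocyte-like and 0.218 and 0.320 in neutrophil-like cells.

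**Figure D2:**
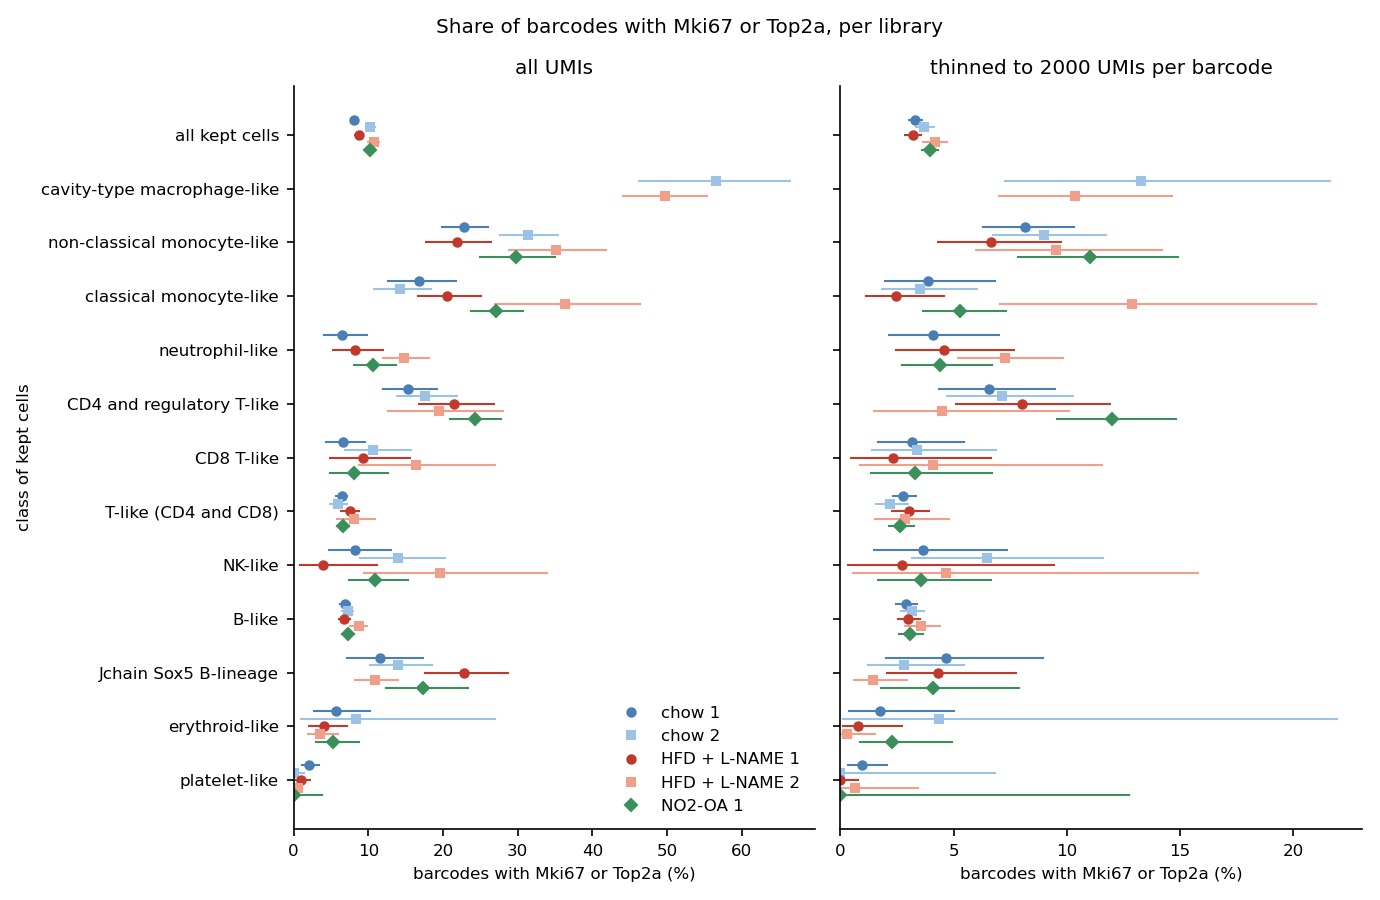
Share of barcodes with a UMI of Mki67 or Top2a by class and library, from all UMIs (left) and after thinning to 2000 UMIs per barcode (right, shallower barcodes left out), with exact 95% binomial intervals that cover counting error only. Points with fewer than 20 cells are not drawn. Cavity-type macrophage-like cells are highest on the left in the libraries that held them. Non-classical monocyte-like cells lie above B-like and T-like cells in both panels, at a smaller distance on the right. CD4 and regulatory T-like cells lie above classical monocyte-like cells in chow 2 and HFD + L-NAME 1 on the left. On the right they do so in every library but HFD + L-NAME 2.

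Between chow and HFD + L-NAME the share over all kept cells was 9.17% ± 1.54 (SD, n = 2) and 9.74% ± 1.36 (n = 2), and it was 10.2% under NO2-OA. The values per library were 8.08% (95% exact interval 7.65 to 8.53) and 10.3% in chow and 8.78% and 10.7% under HFD + L-NAME, so the groups overlapped (two-sided exact permutation test, p = 0.667). The smallest p that 2 against 2 libraries can give is 0.333. Without the cavity-type macrophage-like barcodes, which only chow 2 and HFD + L-NAME 2 held, the difference turned from 0.569 to -0.0914 percentage points, and HFD + L-NAME had 8.78% and 8.91%. In classical monocyte-like cells the shares were 16.8% and 14.2% in chow, 20.6% and 36.3% under HFD + L-NAME and 27.1% under NO2-OA. These groups did not overlap with all UMIs (exact permutation p = 0.333), but median depth was 10,905 and 12,827.5 UMIs in chow and 13,810 and 16,734 under HFD + L-NAME. After thinning they overlapped, with 3.89% and 3.51%, 2.45% and 12.9%, and 5.26%. CD4 and regulatory T-like cells had 15.3% and 17.6% in chow, 21.5% and 19.5% under HFD + L-NAME and 24.2% under NO2-OA (exact permutation p = 0.333). After thinning, 6.57% and 7.14% stood against 8.03% and 4.46%, a mean difference of -0.608 percentage points in place of 4.04, and NO2-OA had 12.0%. B-like cells had 6.89% and 7.23%, 6.80% and 8.68%, and 7.28% (exact permutation p = 1.00). Platelet-like barcodes had 2.04% and 0 of 257 (which allows a share of up to 1.17%), 0.917% and 0.545%, and 0 of 96 (up to 3.12%).

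Barcodes that held many members at once were few. Hmgb2, H2az1 and Stmn1 were left out of this count, which left 35 members, and barcodes were thinned to 2000 UMIs. They were taken as broadly expressed, but level does not set Stmn1 apart. Over all kept cells it had a mean of 19.9 CPM, below Pcna (141) and Cenpa (43.8), which stayed in. Of the 51,842 kept cells that were deep enough, 69 held 5 or more members and 33 held 8 or more. By library, the 69 were 15 and 11 in chow, 4 and 22 under HFD + L-NAME and 17 under NO2-OA. The 33 were 4 and 7, 1 and 14, and 7. The counts of HFD + L-NAME 1 and 2 lay on either side of both chow libraries. Below the threshold, 241 cells held exactly 4 members. Both Mki67 and Top2a were found in 40 thinned cells, which held 6.28 further members on average. Cells with Top2a alone held 0.876, with Mki67 alone 0.613, and with neither 0.694.

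The 33 cells with 8 or more members were mostly lymphocytes. CD4 and regulatory T-like cells had 12 (4 and 3 in chow, 0 and 1 under HFD + L-NAME, 4 under NO2-OA), B-like cells 6 (all 6 of them in HFD + L-NAME 2), and the Jchain and Sox5 B-lineage class, with plasma cell genes, 4. Conventional dendritic-like and cavity-type macrophage-like cells had 3 each, cluster 5 had 2, and CD8 T-like, NK-like and unnamed cells 1 each. No such cell was seen among 1721 classical and 2201 non-classical thinned monocyte-like cells, nor in neutrophil-like, erythroid-like, platelet-like or T-like cells. Of the 33, 26 held at least 3 S-phase and at least 3 mitotic members. Their median depth was 24,859 UMIs, against 6017 over all kept cells. Barcodes left out as likely doublets held 5 or more members in 0.217% of cases and 8 or more in 0.0579%, against 0.133% and 0.0637% of kept cells. Whether depth or 2 cells under 1 barcode had a part in these cells was not tested.

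**Figure D3:**
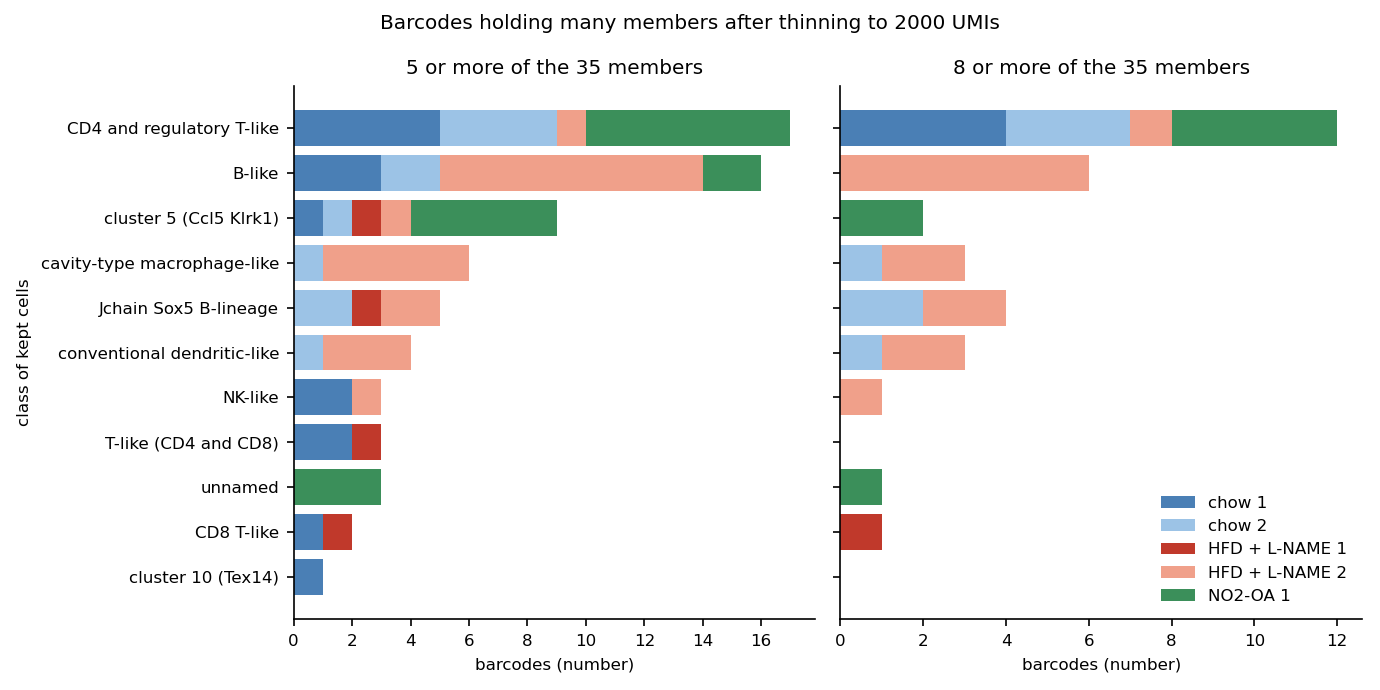
Number of kept barcodes that held 5 or more (left) or 8 or more (right) of 35 members after thinning to 2000 UMIs, by class and coloured by library. CD4 and regulatory T-like cells lead both panels with 17 and 12, and the 6 B-like cells on the right are all from HFD + L-NAME 2.

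How far a member rested on these 69 cells, 0.133% of those counted, differed widely within the list. The share of its UMIs that lay in them was 71.5% for Pclaf, a partner of Pcna, 60.6% for Cdk1, 59.0% for Birc5, 55.8% for Ccna2 and 48.6% for Cenpf. It was 25.1% for Mki67 and 20.8% for Top2a. It was 1.24% for Pcna, 1.80% for Cenpa, 2.59% for Mcm6 and 1.37% for Aurka. The cells were chosen by these members, so the shares describe how a sum over many cells was made up. Most UMIs of Mki67 and Top2a lay outside these cells.

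No member passed the threshold in any of 11 fits of the HFD + L-NAME against chow comparison (edgeR's quasi-likelihood test with Benjamini-Hochberg adjustment at a false discovery rate of 0.05). The fits covered 10 classes and all kept cells, with 6 to 38 members tested in each, and gave 300 tests of a member. Of these 300, 20 had an unadjusted p below 0.05, and the smallest adjusted p in edgeR was 0.604. Over the same fits 0.00364% of all gene tests passed and 2.3% had an unadjusted p below 0.05. In the NO2-OA against HFD + L-NAME comparison, which uses the same HFD + L-NAME libraries, 0 of 300 passed and 18 had an unadjusted p below 0.05, with a smallest adjusted p in edgeR of 0.171, while 0.00873% of all gene tests passed and 2.31% had an unadjusted p below 0.05. DESeq2 called 1 member in the first comparison and 0 in the second, where it called 0.0611% and 0.203% of all gene tests.

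**Figure D4:**
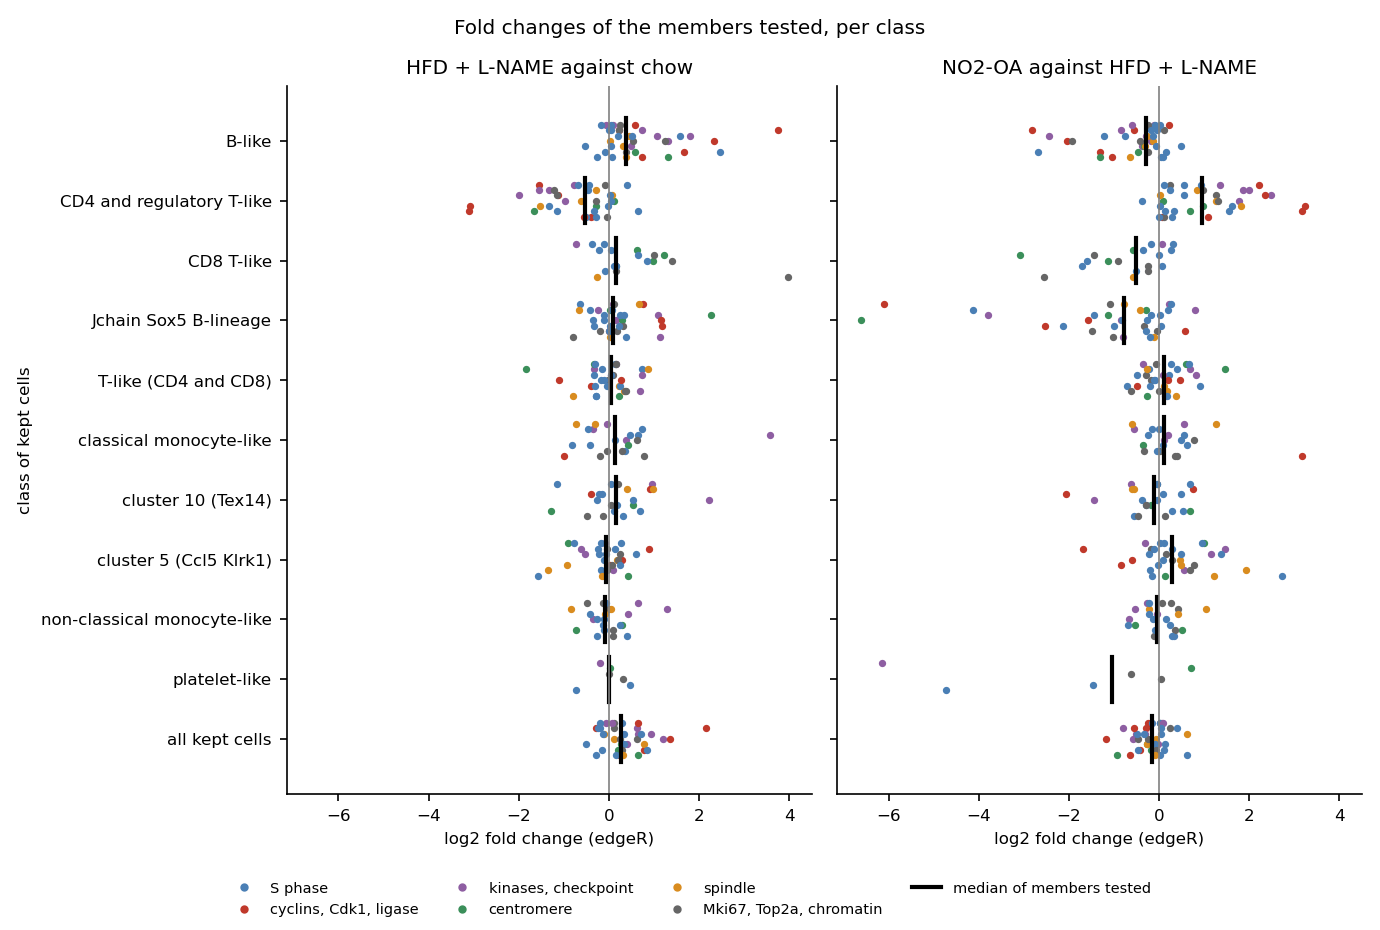
Log2 fold changes of the members tested in each class for HFD + L-NAME against chow (left) and NO2-OA against HFD + L-NAME (right), coloured by role, with the median as a black bar. Medians in CD4 and regulatory T-like cells lie at -0.54 on the left and 0.94 on the right, and both panels share the HFD + L-NAME libraries.

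Summed over all kept cells, 28 of 38 members had a log2 fold change above 0 under HFD + L-NAME against chow, with a median of 0.28, while 49.5% of all genes lay above 0 with a median near 0. No gene of 20,509 was called (0%), and 2 members had an unadjusted p below 0.05, against 2.89% of all genes. Without HFD + L-NAME 2, 17 of the members lay above 0. In NO2-OA against HFD + L-NAME 13 of 38 lay above 0, with a median of -0.16, none of them with an unadjusted p below 0.05, against 2.92% of all genes (0% passed in edgeR, 0.678% in DESeq2). Mki67 had 5.69 and 11.5 CPM in chow, 5.27 and 19.6 under HFD + L-NAME and 9.59 under NO2-OA, so the groups overlapped, with HFD + L-NAME 1 lowest and HFD + L-NAME 2 highest. Top2a had 14.9 and 16.2, 16 and 19.9, and 18.3 CPM. Ube2c had 3.20 and 2.22, 7.59 and 15.4, and 8.25 CPM, and Nusap1 5.93 and 5.20, 7.81 and 10.4, and 8.03. Both genes were higher in each HFD + L-NAME library than in each chow library, with log2 fold changes of 2.16 ± 0.44 and 0.79 ± 0.28 (± approximates the standard error). In edgeR the adjusted p was 1.00 for both genes. DESeq2 gave Ube2c an adjusted p of 0.00318, as the 1 member it called, where it called 0.224% of all genes.

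The Ube2c difference was accompanied by a difference in erythroid-like cells. These held 55.9% and 12.8% of its UMIs in chow, 80.3% and 63.2% under HFD + L-NAME and 44.2% under NO2-OA. Without erythroid-like cells Ube2c had 1.43 and 1.94 CPM in chow, 1.54 and 6.02 under HFD + L-NAME and 4.70 under NO2-OA, so the chow and HFD + L-NAME libraries overlapped. Nusap1 without them had 4.93 and 5.04, 5.37 and 6.83, and 5.44 CPM. Clusters 22 and 23 are still in these values, and they held 130 of the 686 Ube2c UMIs of NO2-OA. Without them as well, Ube2c had 1.20 and 1.88 CPM in chow, 1.40 and 5.65 under HFD + L-NAME and 3.19 under NO2-OA, and its log2 fold change against chow was 1.21 ± 0.69 (edgeR adjusted p = 1.00). In that fit, added after the values were seen, 28 of 38 members lay above 0 against chow, with a median of 0.28. For Mki67, leaving out erythroid-like cells left 5.66 and 11.4, 5.27 and 20.6, and 9.64 CPM, values close to those with them. Cavity-type macrophage-like cells are still in these values. Only chow 2 and HFD + L-NAME 2, the libraries with the highest Mki67 values, held such cells. Of these cells, 44 of 99 and 126 of 316 had Mki67 alone, and 12 and 22 had both Mki67 and Top2a. The CPM of Mki67 without them is not given here.

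In CD4 and regulatory T-like cells most members had lower values in HFD + L-NAME and higher ones in NO2-OA. These were 405 and 369 cells in chow, 274 and 113 under HFD + L-NAME and 627 under NO2-OA. Against chow, 6 of the 36 members tested lay above 0, with a median of -0.54 (all genes: 49.0% above 0, median near 0), and 10 had an unadjusted p below 0.05, against 3.03% of all genes. Against HFD + L-NAME, 34 of 36 lay above 0 under NO2-OA, with a median of 0.94 (all genes: 49.0%, median near 0), and 14 had an unadjusted p below 0.05, against 2.18% of all genes. None passed the adjustment in either comparison, where 0.0349% and 0.0524% of all genes did. Without HFD + L-NAME 1, 15 members lay above 0 against chow and 25 in the second comparison.

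Birc5, the chromosomal passenger protein survivin, had 30 and 51 UMIs in chow, 7 and 4 under HFD + L-NAME and 90 under NO2-OA, or 11 and 18, 3.50 and 3.53, and 20.4 CPM. The HFD + L-NAME libraries lay below the other 3, with log2 fold changes of -2.00 ± 0.52 against chow (edgeR adjusted p = 0.604) and of 2.49 ± 0.56 for NO2-OA against HFD + L-NAME (edgeR adjusted p = 0.171). Without chow 1 they were -2.32 and 2.48, and without chow 2 the second was 2.49. With no filter on low counts the second passed the threshold (edgeR adjusted p = 0.00649). That setting also called more genes of any kind than the main one, with counts given under the dependence on processing below. A fit without 1 library leaves its group with a single library, whose spread is assumed to be that of the others. Stmn1, which destabilises microtubules, had 49.2 and 49.0, 17.0 and 25.6, and 41.4 CPM, again without overlap between chow and HFD + L-NAME (-1.21 ± 0.31, edgeR adjusted p = 0.604). Without chow 1 its log2 fold change was -1.23. Mki67 had 29.0 and 34.2, 8.01 and 22.1, and 34.2 CPM (-1.14 ± 0.41 and 1.25 ± 0.46, edgeR adjusted p = 0.999 and 1.00). Pclaf had 25.3 and 16.6, 2.50 and 15.9, and 25.4 CPM. Its value turned on HFD + L-NAME 2: without that library the log2 fold change was -3.00 for the first comparison and 3.27 for the second, with HFD + L-NAME 1 alone for its group. Ccna2, the cyclin of S phase and early mitosis, had 25 and 9 UMIs in chow, 0 and 2 under HFD + L-NAME and 30 under NO2-OA.

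Top2a differed from that pattern. It had 56.6 and 33.1 CPM in chow, 43.6 and 26.5 under HFD + L-NAME and 90.6 under NO2-OA, so chow and HFD + L-NAME overlapped and NO2-OA lay above all 4 others (1.31 ± 0.37 against HFD + L-NAME, edgeR adjusted p = 0.784). That log2 fold change was 1.29 without chow 1 and 1.29 without chow 2. It passed the threshold with no filter on low counts (edgeR adjusted p = 0.0368). Among members with many counts, Pcna had 246 and 191, 182 and 160, and 190 CPM, Hmgb2 679 and 797, 643 and 734, and 822, and Cenpa 50.7 and 60.6, 53.1 and 65.4, and 63.6. Between chow and HFD + L-NAME, Hmgb2 and Cenpa differed by less than the libraries of 1 group did.

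A few barcodes held a large part of these sums. In this class 17 cells had 5 or more members, 5 and 4 in chow, 0 and 1 under HFD + L-NAME and 7 under NO2-OA. They held 50.4% and 48.4% of the UMIs of the 22 mitotic members in chow, 0% and 18.7% under HFD + L-NAME and 50.7% under NO2-OA. The summed level of these 22 was 279 and 282 CPM in chow, 171 and 217 under HFD + L-NAME and 387 under NO2-OA. Without the 17 cells it was 143 and 150, 171 and 180, and 197 CPM, with both HFD + L-NAME libraries above chow in place of below. The 17 were chosen by the members summed here and lay mostly in chow and NO2-OA, so this turn follows from the choice and shows only how the sums were made up. The same holds for values without such cells in the other classes. Mki67 without them had 13.2 and 12.4, 8.01 and 12.6, and 13.8 CPM, and Stmn1 16.6 and 25.1, 17.0 and 14.4, and 15.9. Top2a without them had 19.3 and 18.9 CPM in chow, 43.6 and 21.6 under HFD + L-NAME and 46.2 under NO2-OA. The S-phase sum was 533 and 432, 403 and 460, and 507 CPM, and without the 17 cells 441 and 366, 403 and 400, and 421. Among the 17, 16 had a UMI of Cd3e, 12 of Cd4 and 3 of Cd8a. Foxp3, the factor of regulatory T cells, was found in 4 of them (23.5%) at a median depth of 20,016 UMIs, and in 20.5% of the other 1771 cells at 6445. In CPM, the regulatory markers Foxp3, Il2ra, Ctla4 and Ikzf2 had 32.9, 15.0, 258 and 204 in the 17, and 57.2, 84.7, 704 and 645 in the others. Foxp3 and Il2ra stood on 11 and 5 UMIs in the 17. Cd8a had 77.9 CPM in the 17 and 11.1 in the others, Cd3e 341 and 347, and Cd4 180 and 194.

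**Figure D5:**
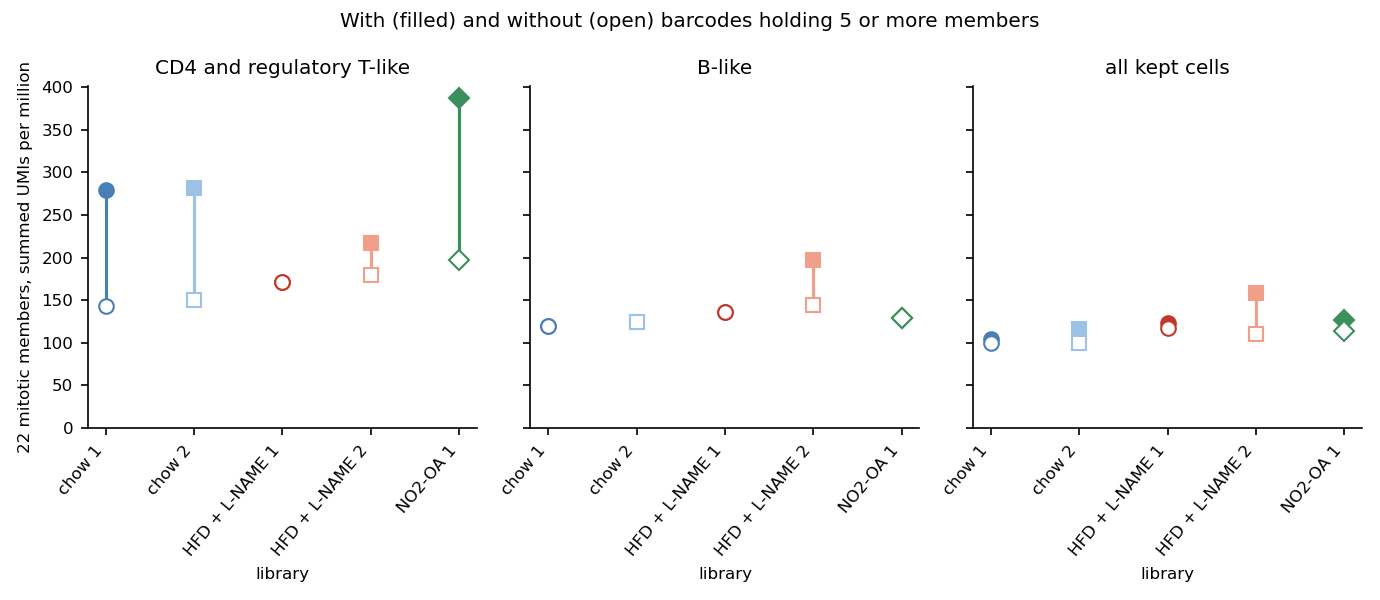
Summed CPM of 22 mitotic members in 3 sets of cells, per library, with (filled) and without (open) the barcodes that held 5 or more members. In CD4 and regulatory T-like cells the chow values move from 279 and 282 to 143 and 150, while HFD + L-NAME 1, which held no such barcode, stays at 171.

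In B-like cells 33 of 38 members lay above 0 under HFD + L-NAME against chow, with a median of 0.39 (all genes: 49.7% above 0, median near 0). No gene was called (0%), and 4 members had an unadjusted p below 0.05, against 1.48% of all genes. NO2-OA against HFD + L-NAME gave 7 of 38 above 0 with a median of -0.30 (all genes: 45.2% above 0, median -0.03), with no gene called (0%) and no member with an unadjusted p below 0.05, against 1.78% of all genes. Without HFD + L-NAME 2 they were 20 of 36 and 16 of 36. The clusters that make up the class also differed between libraries. Cluster 4, with the highest mitotic sum of its 4 clusters, was 43.6% of the B-like cells of HFD + L-NAME 2 and 14.8% to 16.6% in the other libraries, and cluster 3 was 1.29% in NO2-OA and 8.06% to 32.4% elsewhere. Within cluster 4 the mitotic sum was 134 and 148 CPM in chow, 173 and 270 under HFD + L-NAME and 155 under NO2-OA. Within cluster 0, the largest B-like cluster of each library, it was 118 and 120, 130 and 133, and 125 CPM. Ube2c had 5 and 5 UMIs in chow, 8 and 86 under HFD + L-NAME and 8 under NO2-OA. Pclaf had 0.680 and 0.560 CPM in chow, 0.644 and 6.66 under HFD + L-NAME and 0.535 under NO2-OA. Mki67 had 1.59 and 1.75, 0.772 and 7.54, and 1.03 CPM. For these 3 genes HFD + L-NAME 2 stood above the other 4 libraries, which lay close together. The log2 fold changes were 3.76 ± 1.25 for Ube2c and 2.47 ± 0.95 for Pclaf (edgeR adjusted p = 1.00 for both). With no filter on low counts both passed in edgeR, at adjusted p of 2.86e-06 and 0.000777, and again for NO2-OA against HFD + L-NAME (0.0384 and 0.00896). Of the class's UMIs in HFD + L-NAME 2, cluster 4 held 83 of 86 for Ube2c. Without HFD + L-NAME 1 the log2 fold changes against chow were 4.71 for Ube2c and 3.35 for Pclaf, in a fit where HFD + L-NAME 2 stood alone for its group.

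The B-like cells with 5 or more members numbered 3 and 2 in chow, 0 and 9 under HFD + L-NAME and 2 under NO2-OA. The 9 of HFD + L-NAME 2 held 27.3% of the mitotic UMIs of that library's B-like cells. Without such cells the mitotic sum was 119 and 125, 137 and 144, and 128 CPM, in place of 119 and 125, 137 and 197, and 129. Mki67 without them had 1.59 and 1.75, 0.772 and 1.44, and 0.989 CPM. The 6 B-like cells with 8 or more members were all in cluster 4, whose leading genes include Vpreb3, Akap12 and Iglc1. Among the 16 cells with 5 or more, Vpreb3, a protein of B-cell precursors, was at 1380 CPM against 127 CPM in the other B-like cells, and Ighd, the heavy chain of naive B cells, at 113 CPM against 397. Jchain was found in 0 of the 16, but also in only 0.162% of the other B-like cells. Mzb1, another plasma cell marker, had 284 CPM in the 16 and 110 CPM in the others, and was found in 37.5% and 41.3% of them. Vpreb3 and Akap12 were chosen after their values were seen.

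Other classes gave single members on few counts. In CD8 T-like cells Mki67 had 0 and 4 UMIs in chow, 26 and 3 under HFD + L-NAME and 4 under NO2-OA, and Top2a 35 and 25, 51 and 13, and 29. The log2 fold changes against chow were 3.97 ± 1.11 and 1.41 ± 0.45 (edgeR adjusted p = 1.00 for both, where 0.01% of all genes were called and 2.25% had an unadjusted p below 0.05). In the second comparison no member of this class had an unadjusted p below 0.05, where 0.04% of all genes passed and 2.31% had one. With no filter on low counts Mki67 passed (edgeR adjusted p = 0.00916). Without HFD + L-NAME 2 the log2 fold change against chow was 4.74 for Mki67 and 1.97 for Top2a, in a fit where HFD + L-NAME 1, with 26 Mki67 UMIs, stood alone for its group. The 2 CD8 T-like cells with 5 or more members, 1 in chow 1 and 1 in HFD + L-NAME 1, held 62.2% of the Mki67 and 24.2% of the Top2a UMIs of this class. Without them HFD + L-NAME 1 had 3.02 CPM of Mki67 in place of 25.7, and 14.1 CPM of Top2a in place of 50.4. In classical monocyte-like cells Mki67 had 14.9 and 14.1 CPM in chow, 16.8 and 34.3 under HFD + L-NAME and 30.5 under NO2-OA, so each HFD + L-NAME library lay above both chow libraries (0.78 ± 0.36, edgeR adjusted p = 1.00, 0% of all genes called, 3.97% with an unadjusted p below 0.05). Ube2c in these cells had 9 and 4 UMIs in chow, 4 and 2 under HFD + L-NAME and 72 under NO2-OA (3.16 ± 0.81, edgeR adjusted p = 1.00, 0% of all genes called, 1.67% with an unadjusted p below 0.05). With likely doublets kept, that value turned to -0.56. In non-classical monocyte-like cells 10 of 23 members lay above 0 against chow, with a median of -0.08, and in T-like cells 17 of 33, with a median of 0.04. Cluster 1 held most T-like cells in chow and cluster 2 most of them in NO2-OA.

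The cell-cycle genes outside the 38 were taken as 8 further lists of 102 genes. Over the 11 fits they gave 893 tests of a gene in each comparison. None passed the edgeR threshold, while 20 and 18 had an unadjusted p below 0.05, and the smallest adjusted p was 0.693 and 0.485. In the same fits 0.00364% and 0.00873% of all gene tests passed, and 2.3% and 2.31% had an unadjusted p below 0.05 in edgeR. The inhibitors of cyclin-dependent kinases had 5 of 7 genes above 0 under HFD + L-NAME against chow over all kept cells, with a median of 0.40. For Cdkn2a and Cdkn2b, named after their values were seen, HFD + L-NAME 2 stood far above the other libraries. Cdkn2a had 10 and 57 UMIs in chow, 26 and 685 under HFD + L-NAME and 25 under NO2-OA. Cdkn2b had 66 and 67, 51 and 215, and 81 UMIs. Cdkn2d, an inhibitor of the G1 kinases, had 47.7 and 52.9 CPM in chow, 96.5 and 61.5 under HFD + L-NAME and 92.7 under NO2-OA (0.73 ± 0.27, edgeR adjusted p = 1.00). Cdkn1b, which holds resting lymphocytes out of the cycle, had 131 and 138, 125 and 127, and 137 CPM. The G1 cyclin Ccnd3 had 788 and 756 CPM in chow, 571 and 514 under HFD + L-NAME and 641 under NO2-OA, without overlap between chow and HFD + L-NAME (-0.43 ± 0.22, edgeR adjusted p = 1.00). Ccnd2 had 85.3 and 71.5, 65.8 and 92.6, and 85.9 CPM. The retinoblastoma gene Rb1 had 154 and 166, 130 and 148, and 141 CPM, and its relative Rbl2 63.3 and 72.3, 52.3 and 53.9, and 68.2. Rbbp4 and Lin52, 2 genes of the MuvB complex, had 111 to 161 and 80.7 to 160 CPM. Origin licensing genes had 4 of 17 above 0 against chow, with a median of -0.15, and Orc4 and Cdt1 had 75.7 to 117 and 42.7 to 60.8 CPM. Dut, which keeps uracil out of DNA, had 42.3 and 35.8, 40.3 and 43.8, and 22.4 CPM, with NO2-OA below the other 4 (-0.99 ± 0.26 against HFD + L-NAME, edgeR adjusted p = 1.00). The condensin subunit Smc4 had 260 and 205, 175 and 142, and 189 CPM, Cks2 89.6 to 135, Slbp 77.1 to 126, Pttg1 31.2 to 37.9 and Bub3 24.9 to 30.8.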

How the data were processed

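The deposited files are filtered count matrices of UMIs per gene and barcode, 1 per library, made by the authors with Cell Ranger 7.1.0 per the file headers, with mm39 and bcl2fastq named in the submitters' processing notes. Single cells were taken through the 10x 3′ v3.1 kit, per the labels' protocols. Barcodes with at least 200 genes and under 10% mitochondrial UMIs were used, and those with the highest doublet scores (scanpy 1.11.5, Scrublet) were left out. Leiden clustering (2000 variable genes without cell-cycle genes, 40 components, 20 neighbours, resolution 1) gave 28 clusters, named "X-like" where the marker score was at least 1.3, at least 3 markers were detected, the best other lineage scored under 1.0 and under 50% were doublets. These naming limits were set after the data were seen, so shares depend on rebuilt names. UMIs were summed per class and library for classes with at least 50 cells in each library, and fitted with edgeR 4.0.16 (TMM, filterByExpr, robust quasi-likelihood, group as the only term, all 5 libraries in 1 fit, Benjamini-Hochberg at 0.05). DESeq2 1.42.0 was an alternative. The scripts were tested on simulated data, where median fold changes were recovered but false calls exceeded the nominal rate. Of genes changed by a log2 of 1, 0% were called over all kept cells, 14% in B-like and 11.5% in CD4 and regulatory T-like cells. At a log2 of 2 these shares were 40.5%, 66% and 76%. A member that was not called may thus still differ. Leaving out erythroid-like and haemoglobin-led barcodes was an alternative added after seeing the data. Standard errors are the log2 fold change over the root of F. Shares have exact Clopper-Pearson 95% intervals, and a count of 0 was given the limit of 3 counts. Both cover counting error only. The p-values measure the spread between these libraries, and NO2-OA has 1 library, whose spread is assumed to be that of the others.

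Members and lists were chosen with earlier results of these data known. Text names Mki67 and Top2a throughout, the 2 members of each role with the highest mean CPM over all kept cells, any member past the threshold, and of each other list the 2 genes with the highest mean CPM (up to 4 past the threshold). Other members named, and Cdkn2a and Cdkn2b, were chosen after their values were seen. Alternatives covered the count model, normalization, filters, doublets, clustering, depth, replicate block and each library left out.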

Additional observations from a re-analysis of the deposited data

Results flagged for a closer look

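Between classes, both HFD + L-NAME libraries lay on 1 side of both chow libraries for Mki67 or Top2a in some classes and on the other side in others. This contrast of classes was not tested. Classes are listed only for a gene that showed both directions. With 2 against 2 libraries, a random order parts the groups with a probability of 0.333. The Mki67 difference (HFD + L-NAME minus chow, mean CPM) was 13.7 in CD8 T-like and 11.1 in classical monocyte-like cells, against -0.751 in cluster 10 and -16.6 in CD4 and regulatory T-like cells. The CD8 T-like value stood on 0 and 4 UMIs in chow and 26 and 3 under HFD + L-NAME. In cluster 10, 1 and 1 barcodes in chow and 0 and 0 under HFD + L-NAME had a UMI of Mki67. The Top2a difference was 5.12 CPM in B-like and 20.2 in CD8 T-like cells, against -10.5 in cluster 10 and -4.14 in non-classical monocyte-like cells.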

How the results depend on the processing

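With 2, 2 and 1 libraries, calls were few and moved with the settings. The number of member tests called in HFD + L-NAME against chow was 0, against 1 with DESeq2, 3 with no filter on low counts, 1 with the replicate block and 0 to 3 with 1 library left out. In NO2-OA against HFD + L-NAME it was 0, against 5 with no filter, 1 with the block, 1 with mitochondrial share below 5% and 0 to 2 with 1 library left out. Genes called over the 11 fits numbered 5 in the first comparison: 84 with DESeq2, 280 with no filter, 164 with the block, 3 with only the 4 chow and HFD + L-NAME libraries, 10 with the lower mitochondrial limit, 36 with centred clustering, 3 with thinned sums, and 75 to 750 with 1 library left out. In the second they numbered 12: 279, 402, 423 (block), 24, 81 and 7 under the same settings without the 4-library fit, and 98 to 394 with 1 library left out. The replicate block was not part of the main fits. Chow and HFD + L-NAME share 2 replicate numbers. The deviations of same-numbered libraries from their group means correlated over genes at 0.069 to 0.392 by fit, all of them positive. Whether same-numbered libraries share a batch was not tested. The members called with the block were Mki67 in CD8 T-like cells (edgeR adjusted p = 0.0433) in the first comparison and Birc5 in CD4 and regulatory T-like cells (0.00529) in the second. Members above 0 in the first comparison ranged from 17 to 28 over all kept cells, 20 to 33 in B-like and 4 to 15 in CD4 and regulatory T-like cells with 1 library left out, and the last was 3 with the lower mitochondrial limit and 3 with centred clustering. In the second they ranged from 11 to 25 over all kept cells (21 with the block) and 7 to 16 in B-like cells.

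The difference in the share of cells with Mki67 or Top2a (HFD + L-NAME minus chow, percentage points) ran from -0.520 to 1.66 over all kept cells with 1 library left out and was -0.0914 without cavity-type macrophage-like cells, an alternative added after seeing the data. It ran from -0.257 to 1.62 in B-like cells and, among non-classical monocyte-like cells, from -5.24 to 8.01. After thinning it was -0.608 in CD4 and regulatory T-like and -0.479 in non-classical monocyte-like cells. Of 439 alternatives to 28 fold changes of named members, 403 kept direction and side of the threshold, 23 passed it and 13 turned. With 1 library left out, the log2 fold change of Mki67 against chow ran from -0.61 to 1.27 over all kept cells and from -1.06 to 2.11 in B-like cells, and that of Top2a in CD4 and regulatory T-like cells from -0.74 to 0.14. In NO2-OA against HFD + L-NAME, over all kept cells Mki67 ran from -1.12 to 0.75, Top2a from -0.21 to 0.077 and Ube2c from -0.99 to 0.0049, and in B-like cells Mki67 ran from -2.82 to 0.37 and Top2a from -0.48 to 0.080. All of these turned without HFD + L-NAME 2, and Top2a in CD4 and regulatory T-like cells also without chow 1. With the block Mki67 and Top2a over all kept cells were 0.53 and 0.049, with at least 500 genes Ube2c was 0.21, and with doublets kept Ube2c in classical monocyte-like cells was -0.56. The cause was not tested.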
